A study of Mus musculus with 12 samples.

Results

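The Zfp genes described here are mouse genes named Zfp followed by a number, most of which encode C2H2 zinc finger proteins. They were chosen by name and by level: the deposited value had to reach 10 ppm of the column total in each of the 3 total mRNA libraries of DMSO-treated cells, and Zfp608, Zfp609, Zfp703 and Zfp503 were left out. This gave 165 genes out of 370 of that name and 53351 genes in the table. The choice used the total DMSO levels, so those levels are a description, and contrasts that contain these libraries are not independent of it. The cells were wild-type primary neural progenitors from mouse cortex at E13.5, dissociated and grown overnight with bFGF and EGF. The groups were polysome mRNA from Torin1-treated cells, polysome mRNA from DMSO-treated cells, total mRNA from Torin1-treated cells and total mRNA from DMSO-treated cells, with 3 biological replicates in each. Torin1, an inhibitor of the kinase mTOR in both of its complexes, was given at 250 nM for 2 h, and DMSO is its solvent. Every culture also received cycloheximide at 100 ug/ml for 5 min, which holds ribosomes on mRNA, and a share of 10% of each lysate served as total mRNA. Polysome mRNA was the sucrose gradient material with more than 3 ribosomes per mRNA.

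A C2H2 zinc finger is a short fold in which a zinc ion is held by cysteines and histidines, and arrays of such fingers read DNA sequence. Many mammalian zinc finger proteins also carry a KRAB domain, which recruits the co-repressor TRIM28 and through it the histone methyltransferase SETDB1, and these proteins silence transposable elements and guard imprinted loci. Others without that domain act at promoters, in neural development, or on RNA and ribosomes. mTOR promotes translation, most of all that of mRNAs that begin with a C followed by a run of pyrimidines, known as 5' terminal oligopyrimidine (TOP) mRNAs.

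Since the deposited table holds scaled abundances rather than reads, the depth is unknown and no counting error is given. Column totals were 14341674 to 19201406. Values below are in ppm of the column total after scaling between libraries, and differences are on the log2(ppm + 1) scale with their standard error. The test was limma's moderated test over 20240 genes, with Benjamini-Hochberg adjustment over all of them and a threshold of 0.05 on the adjusted p. Within groups Pearson's r across 9590 expressed genes lay between 0.978 and 0.992, and genes are not independent replicates. The noncoding RNA Rn7sk took 2090 ppm of total Torin1 replicate 2, against 38.6 to 183 ppm in the other total libraries, so counts of Zfp genes that rest on this library are also given without it. Radial glia markers, the list closest to the progenitor label, summed to 3897 to 3998 ppm in total Torin1 and 3432 to 3519 ppm in total DMSO libraries. Markers of other cells were present beside them: neuron markers summed to 2726 to 2792 ppm and 2574 to 2608 ppm, and erythroid markers to 1135 to 1307 ppm and 1035 to 1104 ppm, in the same order. Microglia markers summed to 2.79 to 4.44 ppm and 2.49 to 4.39 ppm.

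The 165 genes averaged 9.41 to 157 ppm in total DMSO mRNA, with a median of 20.8 ppm, and none was listed at 0 in any library. The sources used here do not state whether values were divided by transcript length, so the order of levels between genes holds for the deposited scale alone. On that scale the highest was Zfp207, which encodes BuGZ, a protein of the mitotic spindle and kinetochores. It had 152 ± 13.1 ppm in polysome Torin1, 182 ± 1.88 ppm in polysome DMSO, 124 ± 4.86 ppm in total Torin1 and 157 ± 1.56 ppm in total DMSO mRNA (SD, n = 3 each). Next in total DMSO came Zfp706 at 156 ± 9.26 ppm, Zfp428 at 154 ± 3.13 ppm, Zfp445 at 113 ± 6.46 ppm and Zfp422 at 103 ± 3.43 ppm, of which the first 2 do not differ beyond their spread from Zfp207. Just inside the level threshold, by the lowest unscaled total DMSO value, lay Zfp7 at 10 ppm, Zfp324 at 10.1 ppm and Zfp30 at 10.2 ppm, and just outside lay Zfp618 at 9.83 ppm, Zfp800 at 9.8 ppm and Zfp516 at 9.68 ppm. Summed, the 165 mRNAs made up 4405 ± 216 ppm in polysome Torin1, 4562 ± 150 ppm in polysome DMSO, 4745 ± 47.2 ppm in total Torin1 and 4907 ± 16.8 ppm in total DMSO libraries (SD, n = 3 each).

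By RefSeq's table for GRCm38, 164 of the genes have a position, on 19 chromosomes, with 42 on chromosome 7, 17 on chromosome 17, and 13 each on chromosomes 5 and 8. Zfp genes often lie in clusters of related copies, and 78 of the 164 lay within 100 kb of another Zfp gene. The sources used here do not say how reads were divided between similar copies or overlapping genes, so single values of clustered genes are uncertain.

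The comparison of polysome with total mRNA asked which Zfp mRNAs were over- or under-represented among mRNAs with several ribosomes. In Torin1-treated cells, whose libraries the choice of genes did not use, 21 of the 165 genes were higher and 66 were lower in polysome than in total mRNA by limma's test. That is 12.7% higher and 40% lower. Over all 20240 genes tested 40.1% passed, 20% higher and 20.1% lower, and over the 8759 genes that reach the same level threshold 66.4% passed, 37.9% higher and 28.4% lower. The median difference was -0.23 for the Zfp genes and 0.08 for all genes at the level threshold, on the log2 scale. The ranges of the 3 polysome and 3 total libraries did not overlap for 103 Zfp genes, 26 with polysome above (15.8%) and 77 with polysome below (46.7%). At the level threshold 40.2% of genes had polysome above and 30.7% below, and among all genes tested 23% and 24.2%.

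In DMSO-treated cells, given as a description since total DMSO levels chose the genes, 23 were higher and 74 lower in polysome mRNA, or 13.9% and 44.8%. Of all genes tested 41.2% passed, 20.8% higher and 20.5% lower, and of those at the level threshold 68% passed, 38.9% higher and 29.1% lower. The median difference was -0.28 for the Zfp genes and 0.09 at the level threshold. Of the genes lower in polysome mRNA, 63 were lower under both treatments, which is 95.5% of those in Torin1 and 85.1% of those in DMSO. Of the higher genes 18 were shared, or 85.7% and 78.3%, and 0 genes were called in opposite directions. Since polysome and total values are shares of their own libraries, an equal loss of all mRNAs from polysomes is not measured. Scaling to the column total alone moved the median of genes at the level threshold in DMSO to -0.27 and that of the Zfp genes to -0.63, and gave 9 higher and 124 lower. Of all 20240 genes tested 1861 were then higher and 6659 lower. In Torin1 that scaling gave 16 higher and 74 lower, beside 3215 and 4316 of all genes tested. The medians were then -0.32 for the Zfp genes and -0.01 at the level threshold, so the Zfp median lay below the other under both scalings and both treatments. Without total Torin1 replicate 2 the counts in Torin1 were 18 higher and 62 lower. All genes tested then gave 3584 higher and 3562 lower, and the 8759 at the level threshold 3022 and 2226.

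**Figure D1:**
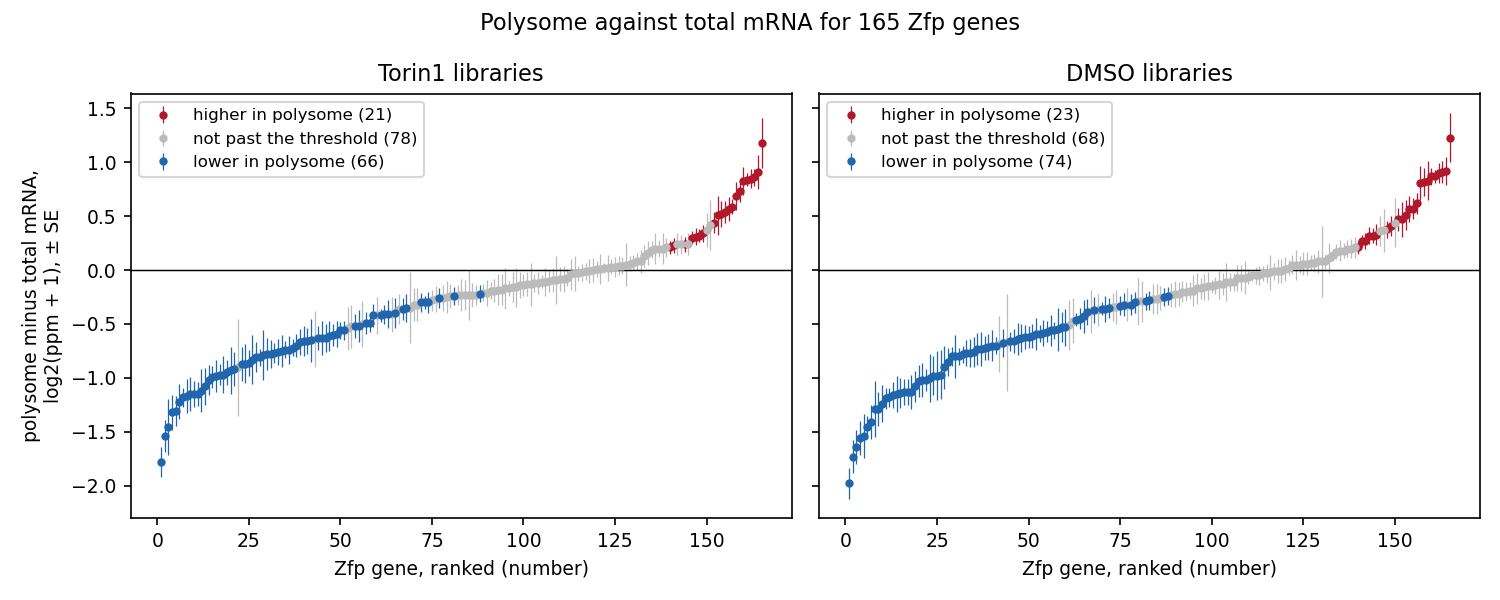
Polysome minus total mRNA on the log2(ppm + 1) scale for the 165 Zfp genes, each ranked within its panel, in Torin1 (left) and DMSO (right) libraries; points are limma estimates and bars their standard errors. Genes below 0 outnumber those above in both panels, with 66 called lower and 21 higher in Torin1 and 74 and 23 in DMSO.

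The 5 lowest and 5 highest genes of this comparison were picked on the DMSO libraries, so their values there are a description and the Torin1 libraries give the same measure in other samples. Lowest was Zfp292 (chromosome 4, 34803110 to 34882983), whose human counterpart is mutated in a neurodevelopmental disorder. It was at 4.94, 7.22 and 8.71 ppm in polysome Torin1 libraries, against 24.5, 26.9 and 26.1 ppm in total Torin1 libraries. Polysome DMSO libraries had 5.33, 4.64 and 4.99 ppm, against 22.8, 22.1 and 22.8 ppm in total DMSO libraries. No polysome library reached any total library under either treatment, and the difference was -1.78 ± 0.14 in Torin1 (limma, adjusted p = 4.62e-06) and -1.98 ± 0.14 in DMSO.

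Zfp462 (chromosome 4, 54944491 to 55083563), a chromatin-associated protein gene mutated in a human developmental syndrome, had 21.4, 33.8 and 31.3 ppm in polysome Torin1 and 76.2, 91 and 86.8 ppm in total Torin1 libraries. All 3 polysome values lay below every total value, and the difference was -1.54 ± 0.15 in Torin1 (limma, adjusted p = 1.47e-05) and -1.73 ± 0.15 in DMSO. The other 3 of the lowest were Zfp40, Zfp62 and Zfp397, for which no role is given here. Zfp40 (chromosome 17, 23173869 to 23193284) had 4.12, 4.09 and 5.97 ppm in polysome Torin1, against 10.1, 11.8 and 13.8 ppm in total Torin1 libraries. Zfp62 (chromosome 11, 49203261 to 49218816) had 11.5, 12.9 and 18.7 ppm in polysome Torin1, against 38, 37.1 and 35 ppm in total Torin1 libraries. Zfp397 had 22.5, 36.4 and 40.9 ppm in polysome Torin1, against 69.3, 72.3 and 71.8 ppm in total Torin1 libraries. In each of the 3 the groups did not overlap, with differences of -1.17 ± 0.16, -1.32 ± 0.16 and -1.12 ± 0.2 (limma, adjusted p = 0.000145, 4.36e-05 and 0.000721).

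At the other end stood Zfp560 (chromosome 9, 20345136 to 20385182), with 37.2, 38.7 and 65.9 ppm in polysome Torin1 and 20.4, 21.1 and 17.3 ppm in total Torin1 libraries. Polysome DMSO libraries had 70.5, 43.9 and 62.1 ppm, against 25.4, 29.1 and 18.7 ppm in total DMSO libraries. Its polysome replicates were widely spread yet all lay above the total ones, and the difference was 1.18 ± 0.23 in Torin1 (limma, adjusted p = 0.00163) and 1.23 ± 0.23 in DMSO. Zfp593 (chromosome 4, 134243306 to 134245591), the counterpart of a yeast factor of large ribosomal subunit export, had 39.1, 31 and 35.7 ppm in polysome Torin1 against 19.1, 18.9 and 19 ppm in total Torin1 libraries. Zfp330 (chromosome 8, 82763618 to 82774145), which encodes the nucleolar protein NOA36, had 69.5, 79 and 98.2 ppm in polysome Torin1 against 49.4, 48.7 and 48.2 ppm in total Torin1 libraries. The groups did not overlap for either gene, with differences of 0.85 ± 0.09 and 0.73 ± 0.1 (limma, adjusted p = 1.55e-05 and 0.000161).

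Zfp771 (chromosome 7, 127242996 to 127254872) had 69.8, 55.5 and 50.8 ppm in polysome Torin1 and 32.7, 30.7 and 33.8 ppm in total Torin1 libraries. Zfp637 (chromosome 6, 117840588 to 117845957) had 164, 164 and 184 ppm in polysome Torin1 and 99.2, 88.7 and 93.2 ppm in total Torin1 libraries. Polysome values of both stood clear of the total values, by 0.83 ± 0.13 and 0.86 ± 0.08. The abundant Zfp428 followed with 248 ± 17.9 ppm in polysome Torin1 and 138 ± 4.01 ppm in total Torin1 mRNA (SD, n = 3 each), a difference of 0.84 ± 0.06. Each call of this and the 2 paragraphs before held in Torin1 whichever of the 6 Torin1 libraries was left out.

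**Figure D2:**
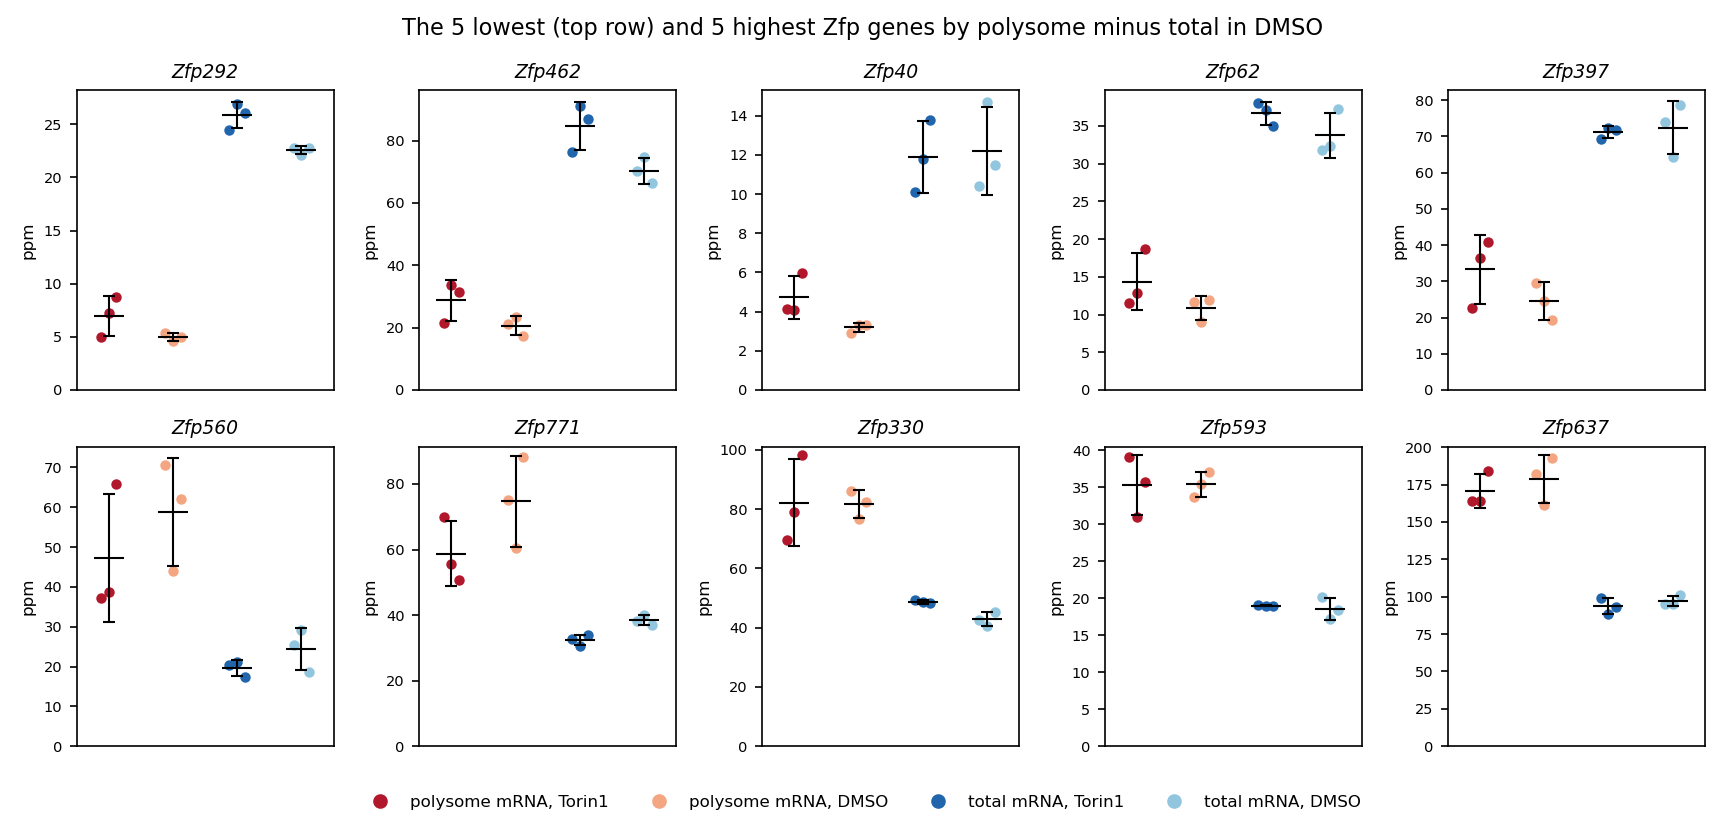
Values per library (points, ppm) with mean and SD (bars, n = 3) for the 5 Zfp genes lowest and the 5 highest for polysome minus total mRNA in DMSO, with groups in the order polysome Torin1, polysome DMSO, total Torin1, total DMSO. In the top row every polysome point lies below every total point of the same treatment, and in the bottom row above.

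By the median, Zfp genes of the longest span had the lowest polysome share, as had other genes. In Torin1 libraries the median difference of Zfp genes was 0.2 for the 9 genes spanning under 5 kb, -0.23 for the 18 from 5 to 10 kb, -0.18 for the 65 from 10 to 20 kb and -0.3 for the 55 from 20 to 40 kb. It was -0.6 for the 9 genes from 40 to 100 kb and -0.91 for the 8 genes of 100 kb or more. Genes at the level threshold had medians of 0.5, 0.43, 0.27, 0.06, -0.22 and -0.47 over the same ranges, above the Zfp median in each of the 6. Across genes Spearman's rho between span and the difference was -0.34 for the Zfp genes and -0.50 for the 8505 genes at the level threshold with a span, as a description, since genes share libraries. Single genes departed from the medians. The lowest genes named above, Zfp292, Zfp462, Zfp40, Zfp62 and Zfp397, span 79.9, 139, 19.4, 15.6 and 11.9 kb. Of the 8 Zfp genes of 100 kb or more 7 were lower in Torin1 and 1 was higher, Zfp277 at 131 kb, by 0.52. Of the 1112 genes at the level threshold in that range 711 were lower and 122 higher. Span includes introns and is not the mRNA length, which was not used here.

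**Figure D3:**
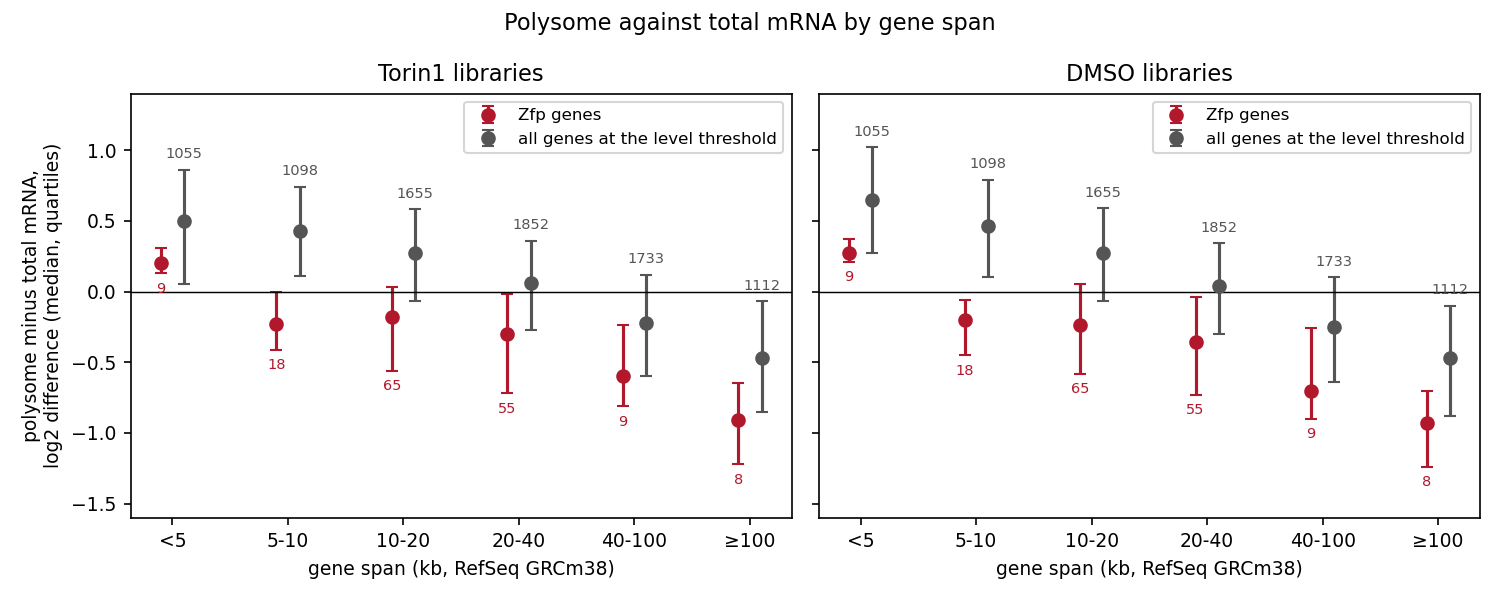
Median polysome minus total difference (points, log2 scale) with quartiles (bars) by gene span in kb, for Zfp genes (red) and all genes at the level threshold (grey), in Torin1 (left) and DMSO (right) libraries; numbers are genes per bin. The grey median falls from bin to bin and the red one is lowest in the last bin, and the red median is below the grey one in all 6 bins of each panel, with the first and last 2 red bins holding 8 or 9 genes.

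Lower and higher genes occurred at all levels: with the Zfp genes ordered by total DMSO level, in Torin1 the lowest 55 had 2 higher and 23 lower, the middle 55 had 7 and 21, and the highest 55 had 12 and 22. Without total Torin1 replicate 2 these counts were 2 and 22, 7 and 18, and 9 and 22. Of the 78 genes near another Zfp gene 10 were higher and 27 lower in polysome Torin1 mRNA, and of the 86 with none within 100 kb 11 were higher and 38 lower. Without that library the counts were 10 and 25, and 8 and 36. Among 21 Zbtb genes at the level threshold, zinc finger genes with a BTB dimerization domain, 0 were higher and 12 lower in Torin1, with a median of -0.41 (limma; 15 of the 21 had an unadjusted p under 0.05). Among 9 Zscan and Zkscan genes, which carry a SCAN domain, 2 were higher and 4 lower, with a median of -0.09. At the level threshold 37.9% of all genes were higher and 28.4% lower. An unadjusted p under 0.05 was found there for 72.4%, and for 46.9% of all genes tested. Without total Torin1 replicate 2 the counts were 0 and 11 for the Zbtb genes and 1 and 3 for the Zscan and Zkscan genes. They were 3022 and 2226 for the 8759 genes at the level threshold. Differences between these families were not tested.

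The comparison of Torin1 with DMSO in polysome mRNA asked which Zfp mRNAs gained or lost share among translated mRNAs when mTOR was inhibited. Of the 165 genes 2 rose and 10 fell, which is 7.27%, by limma's test. Over all genes tested 10.2% passed, 4.43% higher and 5.73% lower, and among genes at the level threshold 17.5% passed, 6.19% higher and 11.3% lower. In this fit 1.21% of the Zfp genes were higher, below the share of both lists, and 6.06% were lower, near the share of all genes and below that at the level threshold. Their median difference was -0.03, against -0.05 at the level threshold. An unadjusted p under 0.05 was found for 50 of them, or 30.3%, against 36.4% at the level threshold and 24.1% of all genes tested. The 3 Torin1 and 3 DMSO polysome libraries did not overlap for 43 genes, or 26.1%, 14 above and 29 below, against 32% of genes at the level threshold and 24.2% of all genes tested.

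The largest fall was that of Zfp961 (chromosome 8, 71951048 to 71970333), for which no role is given here. It had 8.6, 9.15 and 11.9 ppm in polysome Torin1 libraries, against 23.1, 15.6 and 20.2 ppm in polysome DMSO libraries. All Torin1 values lay below all DMSO values, and the difference was -0.92 ± 0.18 (limma, adjusted p = 0.00843). Zfp710 (chromosome 7, 80024814 to 80092751) had 9.16, 11.8 and 8.35 ppm with Torin1 and 15.6, 17.3 and 14.8 ppm with DMSO, and Zfp574 (chromosome 7, 25075674 to 25083492) had 13.2, 13.8 and 10.6 ppm with Torin1 and 18.1, 19.1 and 18.4 ppm with DMSO. Neither gene's groups overlapped, and the differences were -0.66 ± 0.11 and -0.54 ± 0.09 (limma, adjusted p = 0.00308 and 0.00336).

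Zfp467 (chromosome 6, 48427692 to 48445992), which in mouse stromal cells favours fat over bone differentiation, had 19.9, 18.3 and 17.1 ppm in polysome Torin1, against 29.3, 25.9 and 30.3 ppm in polysome DMSO libraries. Zfp131 (chromosome 13, 119765186 to 119791477), a BTB domain transcriptional regulator gene, had 13.7, 21.9 and 20.2 ppm with Torin1 and 29.8, 26 and 24.6 ppm with DMSO. Both sets lay apart, by -0.6 ± 0.14 and -0.53 ± 0.14 (limma, adjusted p = 0.0215 and 0.0406). Both calls ended when any of 3 of the 6 polysome libraries was left out, with a highest adjusted p of 0.0829 for Zfp467 without polysome DMSO replicate 3 and of 0.141 for Zfp131 without polysome DMSO replicate 1. The other genes that fell were Zfp651, Zfp384, Zfp251, Zfp219 and Zfp207, by -0.43 to -0.26. Zfp219, a partner of SOX9 in mouse cartilage, was at the threshold (limma, adjusted p = 0.05) and its call ended whichever of the 6 libraries was left out. That of Zfp207 ended without any of 3 (at most an adjusted p of 0.0751, without polysome DMSO replicate 1).

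Zfp655 (chromosome 5, 145231595 to 145247306), which encodes a KRAB protein that binds the signalling protein VAV1, had 17.8, 17.7 and 21 ppm in polysome Torin1, against 12.2, 11.3 and 14.3 ppm in polysome DMSO libraries. The groups did not overlap, the rise was 0.55 ± 0.11 (limma, adjusted p = 0.00979), and the call held without each library. Zfp358 (chromosome 8, 3493138 to 3497208) had 69.9, 58.4 and 55.2 ppm with Torin1 and 46.7, 50.6 and 51.3 ppm with DMSO, a rise of 0.29 ± 0.08 (limma, adjusted p = 0.0442). Leaving out any of 5 of the 6 libraries ended this call, with an adjusted p of up to 0.153 without polysome DMSO replicate 1.

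Of the 12 calls in polysome mRNA, 4 held whichever library was left out: the falls of Zfp961, Zfp710 and Zfp574 and the rise of Zfp655. The count itself moved with single libraries, to 21 higher without polysome Torin1 replicate 1, 1 higher without replicate 2, and 4 higher and 16 lower without replicate 3. Of all 20240 genes tested 1156, 661 and 1102 were higher in these fits, in the same order, and 1637 were lower in the last. It was 1 higher and 4 lower without polysome DMSO replicate 1, beside 559 and 728 of all genes. It was 3 lower without DMSO replicate 3, beside 687 of all genes. Scaling to the column total alone gave 34 higher and 1 lower, with a median of 0.19 at the level threshold and 0.21 for the Zfp genes. Of all genes tested that scaling gave 2787 higher and 317 lower. There, and without polysome Torin1 replicate 1, the share of higher Zfp genes lay above that of all genes tested, unlike in the fit given first. In a fit of the polysome libraries alone, which takes the spread from fewer samples, 0 were higher and 1, Zfp467, was lower, so that the 4 calls named above ended there. Of all genes tested 208 were higher and 252 lower in that fit.

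**Figure D4:**
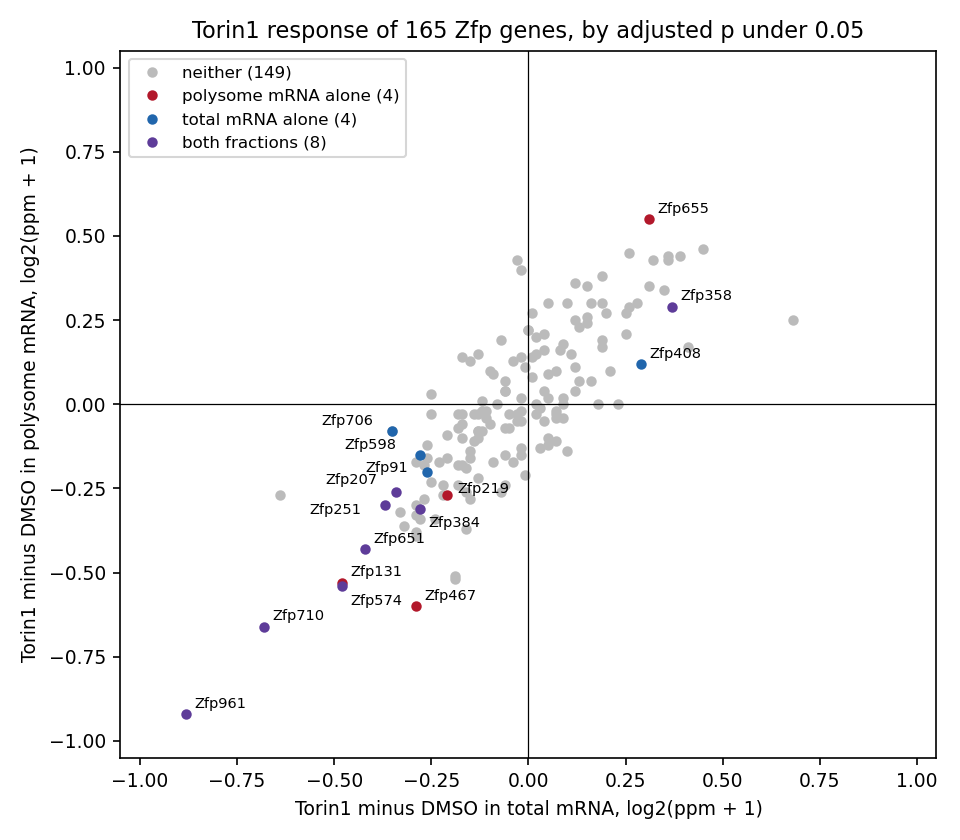
Torin1 minus DMSO for each of the 165 Zfp genes in total mRNA (x axis) and polysome mRNA (y axis), log2(ppm + 1) scale; colours mark genes with an adjusted p under 0.05 in polysome mRNA alone (4), total mRNA alone (4), both (8) or neither (149). Zfp961 and Zfp710 lie farthest down both axes.

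In total mRNA, where the control libraries are those that chose the genes, 2 Zfp genes were higher and 10 lower with Torin1, again 7.27%. Over all genes tested 7.96% passed, 3.6% higher and 4.36% lower, and at the level threshold 12.3%, 4.12% higher and 8.22% lower. The medians were -0.04 for the Zfp genes and -0.05 at the level threshold. Without the level threshold, 5 of 345 Zfp genes tested were higher and 11 lower. With scaling to the column total alone 0 were higher and 6 lower, beside 415 and 602 of all 20240 genes tested. A fit of the total libraries alone gave 9 higher and 23 lower, beside 1063 and 1532 of all genes tested.

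The genes lower in total mRNA were Zfp961, Zfp710, Zfp574, Zfp651, Zfp251, Zfp706, Zfp207, Zfp384, Zfp598 and Zfp91, and the higher ones Zfp358 and Zfp408. Zfp961 was at 11.9, 9.43 and 11.9 ppm in total Torin1 libraries, against 18.2, 27.2 and 18.9 ppm in total DMSO libraries. Zfp710 was at 11.5, 11.4 and 11.9 ppm with Torin1 and 20.1, 18.7 and 18.6 ppm with DMSO. Neither gene's groups overlapped, and their differences of -0.88 ± 0.18 and -0.68 ± 0.11 were close to those in polysome mRNA. Zfp574 had 15.1, 15.3 and 14.9 ppm with Torin1 and 21.7, 20.1 and 22.6 ppm with DMSO, a difference of -0.48 ± 0.09. Zfp207 had 123, 129 and 119 ppm in total Torin1 and 155, 156 and 158 ppm in total DMSO libraries, a difference of -0.34 ± 0.06, beside 138, 156 and 163 ppm in polysome Torin1 and 183, 183 and 180 ppm in polysome DMSO libraries, a difference of -0.26 ± 0.06. Every Torin1 library lay below every DMSO library of its fraction for both genes.

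Zfp651 (chromosome 9, 121759319 to 121771742) had 20.2, 24.4 and 22 ppm in total Torin1 and 29.9, 28 and 31.9 ppm in total DMSO libraries. Zfp251 (chromosome 15, 76852131 to 76871435) had 22.2, 21.3 and 21.2 ppm with Torin1 and 30, 27.4 and 27 ppm with DMSO. The groups lay apart for both, by -0.42 ± 0.09 and -0.37 ± 0.07. The neighbour of Zfp251 at 27.1 kb, Zfp7, had 10.4 ± 1.39 ppm in total Torin1 and 9.41 ± 0.243 ppm in total DMSO mRNA (SD, n = 3 each) and overlapping groups. Zfp706, which in mouse embryonic stem cells is needed to leave self-renewal, had 115, 133 and 118 ppm in total Torin1 and 149, 166 and 152 ppm in total DMSO libraries. In polysome mRNA its groups overlapped, at 185, 175 and 192 ppm with Torin1 and 195, 190 and 199 ppm with DMSO, so that its differences were -0.35 ± 0.07 in total and -0.08 ± 0.07 in polysome mRNA. Zfp408, whose human counterpart is mutated in inherited retinal disease, had 24.2, 25.3 and 28.1 ppm in total Torin1 and 22.4, 19.1 and 21.3 ppm in total DMSO libraries, which do not overlap. Its difference was 0.29 ± 0.08, and its call, like those of Zfp598 and Zfp91, ended whichever library was left out.

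Genes called in both fractions were 7 of the lower ones, which is 70% of each list of 10, and 1 of the higher ones, Zfp358. Total mRNA was set aside from the lysates that were put on the gradients, so the overlap was not tested. In total mRNA 4 of the 12 calls held without each library, while that of Zfp961 ended without either of 2 (adjusted p of up to 0.0616 by limma, without total Torin1 replicate 2). Leaving out any 1 of the 6 libraries left 0 or 1 higher and 5 to 7 lower, with 0 and 6 without total Torin1 replicate 2. In that last fit 428 of all genes tested were higher and 458 lower. Intermediate progenitor markers rose with Torin1, 4 of 4 in each fraction. They summed to 205 to 268 ppm in polysome Torin1 and 159 to 162 ppm in polysome DMSO libraries, and to 266 to 275 ppm in total Torin1 and 176 to 185 ppm in total DMSO libraries. Endothelial, mural and meningeal markers, of which 3 of 6 rose in each fraction, summed to 28.5 to 33.6 ppm in polysome Torin1 and 19.6 to 23.7 ppm in polysome DMSO libraries, and to 27.6 to 31.4 ppm in total Torin1 and 18.8 to 19.8 ppm in total DMSO libraries. No marker of either list was at 0 throughout, and their part in the Zfp differences was not tested. Single radial glia markers rose as well, 3 of 8 in each fraction, and so did 1 of 6 neuron and 1 of 6 interneuron and ventral forebrain markers. The radial glia sums overlapped in polysome mRNA, at 4482 to 6911 ppm with Torin1 and 4919 to 6063 ppm with DMSO. Of 5 oligodendrocyte and astrocyte markers 1 rose, in total mRNA alone, and no microglia or erythroid marker passed. Among all genes tested 4.43% rose in polysome and 3.6% in total mRNA. In bulk libraries fewer cells of a type and less RNA per cell cannot be told apart.

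**Figure D5:**
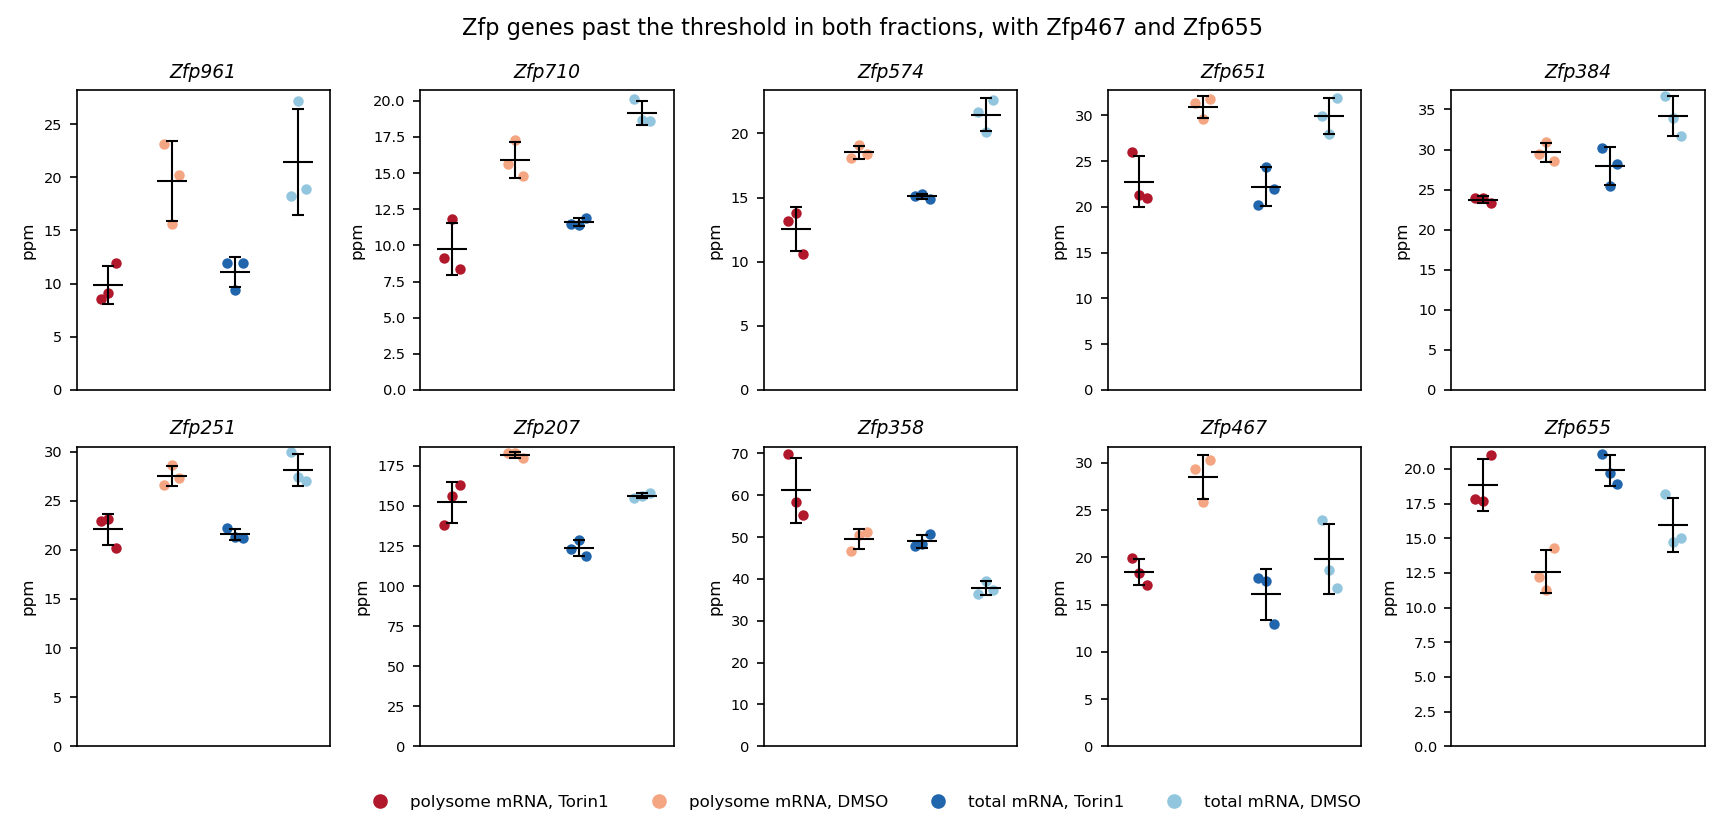
Values per library (points, ppm) with mean and SD (bars, n = 3) for the 8 Zfp genes past the threshold in both fractions and for Zfp467 and Zfp655, with groups in the order polysome Torin1, polysome DMSO, total Torin1, total DMSO. Torin1 points lie below DMSO points of the same fraction in the first 7 panels and above them for Zfp358.

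The change of polysome association with Torin1, that is the Torin1 difference in polysome mRNA minus that in total mRNA, passed limma's test for 0 of the 165 Zfp genes, with 2 at an unadjusted p under 0.05, and for 0 with 2 also without total Torin1 replicate 2. Over all genes tested 0.627% passed, 0.00494% higher (1 gene) and 0.623% lower (126 genes), and at the level threshold 1.36%, 0.0114% higher and 1.35% lower. An unadjusted p under 0.05 was found for 1174 of all 20240 genes tested and 549 of the 8759 at the level threshold. Without total Torin1 replicate 2 it was found for 1129 and 526. The Zfp median was 0.03 and the range -0.43 to 0.47, against a median of 0.01 at the level threshold. The smallest adjusted p, 0.664, was that of Zfp706 at 0.27 ± 0.1. Zfp40 had the upper end of the range, at 0.47 ± 0.23. The median standard error was 0.16, and a p that misses the threshold does not show that polysome association stayed the same. With scaling to the column total alone Zfp706 was higher by limma, at 0.55, and no other Zfp gene passed. Of all genes tested that scaling gave 32 higher and 115 lower.

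Letters at the start of the mRNA were examined because mRNAs of the TOP class begin with a C followed by pyrimidines. RefSeq windows of 300 bases around an annotated start (GRCm38.p6) were found for 138 of the 165 genes. A C followed by 4 pyrimidines at an annotated start was present in 3 of the 138, or 2.17%, and in 3.01% of all 27025 genes with a window. The 3 were Zfp266, Zfp664 and Zfp932. Windows of 30 bases, 10 before and 20 from the start, are shown for them and for 4 of the genes that changed with Torin1, with the first 5 bases of the mRNA in capitals. They lie at chr9:20521400-20521429 (minus strand) for Zfp266, chr5:124862695-124862724 (plus) for Zfp664, chr5:109996517-109996546 (plus) for 1 of the annotated starts of Zfp932, chr8:71951056-71951085 (plus) for Zfp961, chr7:80024804-80024833 (plus) for Zfp710, chr11:80383269-80383298 (plus) for Zfp207 and chr5:145231732-145231761 (plus) for Zfp655.
Zfp266: acggccagccCCCCCttttctccgagctct
Zfp664: cacccccatcCTCCCggaggcgtctgggtg
Zfp932: gggccggtttCCCTTagtagctgagcaggc
Zfp961: ggcgccgccaTTTTCggcgctgtccttggc
Zfp710: gatgcagcccGGAGGaaggagggaagggga
Zfp207: ctctcaccgcGGTGGctgatgggaggtgga
Zfp655: gccttctggcAGTCGagagagtggccccgg
The first 3 begin with C and pyrimidines, Zfp961 with T and pyrimidines, and the last 3 with a purine. None of the 10 genes lower with Torin1 in either fraction that have a window carries a C followed by 4 pyrimidines at an annotated start. An annotated start can differ from the one used in these cells, which was not measured.

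Values of the 3 genes with such a start did not pass for Torin1 against DMSO in polysome mRNA. Zfp266 had 35.5, 53.7 and 66.4 ppm in polysome Torin1 and 46.3, 39.5 and 39.5 ppm in polysome DMSO libraries, which overlap. Zfp664 had 78.2, 77.5 and 82 ppm with Torin1 and 82.5, 88.4 and 83.3 ppm with DMSO, a difference of -0.1 ± 0.05 (limma, adjusted p = 0.27). Zfp932, a KRAB gene that silences endogenous retroviruses in mouse, had 22.2, 22.2 and 23.8 ppm with Torin1 and 36.3, 26.3 and 27.4 ppm with DMSO. Its groups did not overlap, and the difference was -0.37 ± 0.11 (limma, adjusted p = 0.0556).

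Other strings were searched on both strands of the 300-base windows, of which CACGTG and TGACGTCA share letters and can overlap. CACGTG, the E-box bound by MYC and by the lysosomal regulator TFEB, was present in 7 of the 138 genes, or 5.07%, against 8.09% of all genes. ACTACAA, part of the site bound by ZFP143 itself, was present in 5.07%, against 3.78%. TGACGTCA, the cyclic AMP response element, was present in 6 genes, or 4.35%, against 2.03%. A match is a string and not a site of binding.

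Roles are described beside the shares of all genes at the level threshold, 37.9% higher and 28.4% lower for polysome against total mRNA in Torin1, and 6.19% higher and 11.3% lower for Torin1 against DMSO in polysome mRNA. Without total Torin1 replicate 2 the counts for polysome against total mRNA were as given for 3 of the 4 role lists, and 10 lower instead of 9 for the chromatin and promoter regulators. Of the RNA and ribosome linked genes, 9 of 10 listed reached the level threshold, and Zfp36, an mRNA decay factor gene, at 2.69 ppm did not. In Torin1 libraries 2 of the 9 were higher in polysome than in total mRNA, Zfp593 and Zfp207, and 3 were lower, the RNA-binding protein genes Zfp638, Zfp106 and Zfp326. Zfp638 had 21.9, 33.7 and 36.6 ppm in polysome Torin1 against 70.1, 64.9 and 68.6 ppm in total Torin1 libraries, a difference of -1.15 ± 0.16 (limma, adjusted p = 0.000126). Zfp106, needed for motor neuron maintenance in mouse, had 40.4, 41.8 and 38.5 ppm against 72, 71.7 and 69.5 ppm, a difference of -0.81 ± 0.08 (limma, adjusted p = 1.12e-05). Zfp326, of a complex that links RNA polymerase II elongation to splicing in human cells, had 36, 46.2 and 44.8 ppm against 69.6, 75.6 and 72.7 ppm, a difference of -0.77 ± 0.09 (limma, adjusted p = 4.31e-05). In all 3 the polysome values lay below all total values. Zfp598, whose human counterpart is the ubiquitin ligase that senses collided ribosomes, had 17.2, 17.7 and 15.1 ppm in polysome Torin1 and 15.6, 15.3 and 16.4 ppm in total Torin1 libraries, which overlap. Zfp622, the counterpart of a yeast factor of large subunit maturation, had 35, 33.8 and 29 ppm in polysome Torin1 and 30.8, 30.5 and 31.7 ppm in total Torin1 libraries, also overlapping. Zfp346, which binds double-stranded RNA, and Zfp830, which is linked to splicing, had differences of -0.11 ± 0.13 and 0.16 ± 0.11. With Torin1 against DMSO in polysome mRNA 1 of the 9 passed, Zfp207, which was lower.

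Of 11 listed neural development genes, 10 were found under the listed symbol, all but Zfp238, and 5 reached the level threshold. Among those found but below it, Zfp423, Zfp521 and Zfp365 had means of 9.49, 7.28 and 3.81 unscaled ppm in total DMSO. In Torin1 libraries 3 of the 5 were lower in polysome than in total mRNA and 0 higher: Zfp292, Zfp462 and Zfp536, which holds back neuronal differentiation in mouse cells. Zfp536 (chromosome 7, 37318023 to 37774039) had 4.78, 6.2 and 5.18 ppm in polysome Torin1 against 14.5, 16.3 and 13.7 ppm in total Torin1 libraries. The groups lay far apart, by -1.31 ± 0.14 (limma, adjusted p = 1.94e-05). Zfp24, needed for myelination in mouse, had 28.8, 32.1 and 36.5 ppm in polysome Torin1 against 38.4, 37.3 and 38.5 ppm in total Torin1 libraries, a difference of -0.23 ± 0.09 that did not pass (limma, adjusted p = 0.0559). Zfp335, a regulator of neural progenitors mutated in human microcephaly, had 11.6 ± 1.92 ppm in polysome Torin1 and 13.7 ± 1.08 ppm in total Torin1 mRNA (SD, n = 3 each), with overlapping groups. Zfp292, Zfp462 and Zfp536 span 79.9, 139 and 456 kb, while Zfp24 and Zfp335 span 11.1 and 20.7 kb. The part of gene span in these differences was not tested. With Torin1 against DMSO in polysome mRNA 0 of the 5 passed limma's test, with 2 at an unadjusted p under 0.05. Such a p was found for 36.4% of genes at the level threshold.

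Of 18 listed chromatin and promoter regulators without a KRAB domain, 15 reached the level threshold. In Torin1 libraries 9 of the 15 were lower in polysome than in total mRNA and 0 higher, with differences from -1.02 ± 0.14 for Zfp644, whose human counterpart binds the histone methyltransferase G9a, to -0.22 ± 0.08 for Zfp384, the nuclear matrix protein NMP4. The call of Zfp384 ended when any of 5 of the 6 Torin1 libraries was left out (adjusted p of up to 0.142, without total Torin1 replicate 1). Zfp281, a transcription factor gene of pluripotent cells, had 7.54, 9.03 and 10.3 ppm in polysome Torin1 against 18.9, 18.6 and 17.8 ppm in total Torin1 libraries, a difference of -0.97 ± 0.1 (limma, adjusted p = 1.29e-05). No polysome value reached a total value. Zfp143, an activator bound at many promoters, had 12.9, 15.6 and 19.3 ppm in polysome Torin1 and 15.9, 16.5 and 14.3 ppm in total Torin1 libraries, which overlap. Zfp592, Zfp687 and Zfp532, whose human counterparts form a complex with ZMYND8, had differences of -0.54 ± 0.2, -0.01 ± 0.11 and -0.67 ± 0.12, of which the last passed (limma, adjusted p = 0.000974). Zfp410, known as the activator of the chromatin remodeller gene Chd4, had 47.5, 44.9 and 53.5 ppm in polysome Torin1, all above its 40.4, 41.3 and 40.9 ppm in total Torin1 libraries, and 0.24 ± 0.1 did not pass (limma, adjusted p = 0.0885). With Torin1 against DMSO in polysome mRNA 3 of the 15 were lower, Zfp131, Zfp384 and Zfp219, and 0 higher. Zfp384 had 24, 24 and 23.3 ppm with Torin1 and 29.5, 30.9 and 28.6 ppm with DMSO, a difference of -0.31 ± 0.08 without overlap (limma, adjusted p = 0.0246). Without polysome DMSO replicate 2 its adjusted p was 0.08, the largest of 4 libraries whose absence ended the call.

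Of 5 listed genes of imprint and provirus silencing, 3 reached the level threshold: Zfp57 and Zfp445, KRAB proteins that guard DNA methylation at imprinted loci, and Zfp932. Zfp57 (chromosome 17, 37001163 to 37010729) had 40.4, 43.7 and 42.3 ppm in polysome Torin1 against 62.6, 80.5 and 68.7 ppm in total Torin1 libraries, a difference of -0.72 ± 0.08 (limma, adjusted p = 3.6e-05). Zfp445 (chromosome 9, 122848910 to 122886851) had 43, 62 and 60.6 ppm in polysome Torin1 against 102, 107 and 109 ppm in total Torin1 libraries, a difference of -0.95 ± 0.12 (limma, adjusted p = 8.08e-05). Both genes thus had every polysome value below every total value. In polysome mRNA their values overlapped between treatments, at 40.4, 43.7 and 42.3 ppm with Torin1 and 40.5, 44.7 and 41.6 ppm with DMSO for Zfp57, and at 43, 62 and 60.6 ppm with Torin1 and 56.2, 46.4 and 50.9 ppm with DMSO for Zfp445. Their partner genes in silencing stood at 201 ppm in polysome Torin1, 236 ppm in polysome DMSO, 214 ppm in total Torin1 and 246 ppm in total DMSO mRNA for Trim28, and at 23, 22.6, 31.2 and 32.8 ppm in the same order for Setdb1. Trim28 did not pass for polysome against total mRNA in Torin1, at -0.1 (limma, adjusted p = 0.376), and Setdb1 was lower by -0.43 (limma, adjusted p = 0.00177).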

How the data were processed

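The sources are 12 libraries of total and polysome mRNA, 4 groups of 3 biological replicates per the labels. Per the submitters' processing notes, the build mm10 and the tools HTSeq 0.6.0 and STAR 2.7.9a were used, with no role or order stated. The deposited table holds a signal per gene, never below 0. In each library 100% of values lay within 0.011 deposited units of a whole multiple of 0.01 ppm of the column total, so a step is a share of the column and not a read. The sources used here do not say how the authors scaled this signal. The design allowed for counts, and the test written there for other values was used.

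Each value was taken as a share of its column total and scaled by a trimmed mean of log ratios (own code, trimming 0.3 of ratios and 0.05 of abundances). The fit held genes whose deposited value reached 1 in at least 3 libraries and was made in R 4.3.3 with limma 3.58.1 on log2(ppm + 1), 4 group means over all 12 libraries, in 5 comparisons. The pseudocount of 1 ppm understates changes of low genes. The fit was tested on simulated data. After removal of group means, correlations of same-numbered libraries ran from -0.23 to 0.33. Between total and polysome libraries of the same treatment they ran from -0.05 to 0.06. With 3 replicates per group such values cannot show whether the numbers pair the libraries, and the fit used no pairing.

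The members and the gene lists were chosen with earlier results of these data known. Genes named are the 5 largest changes per direction in each Torin1 comparison, the 5 highest and 5 lowest for polysome against total mRNA in DMSO, the 5 most abundant, the genes at the level threshold and the members of 4 role lists. Positions, spans and start windows come from RefSeq. A planned split by protein sequence was not run, since protein sequences are not used here. Alternatives were other scalings, filters and pseudocounts, blocks, the compared groups alone, another level threshold and each library left out.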

Additional observations from a re-analysis of the deposited data

How the results depend on the processing

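The main limits are the scaling between libraries and the small number of replicates. With scaling to the column total alone, the Zfp genes called with Torin1 against DMSO were 34 higher and 1 lower in polysome mRNA, 0 higher and 6 lower in total mRNA, and 1 higher for the change of polysome association. For polysome against total mRNA in DMSO they were 9 higher and 124 lower. Of all 20240 genes tested that scaling gave 2787 higher and 317 lower in polysome mRNA and 415 and 602 in total mRNA. It gave 32 and 115 for the change of polysome association, and 1861 and 6659 for polysome against total mRNA in DMSO. That scaling turned the sign of the DMSO difference for Zfp207 to -0.16, Zfp219 to -0.32, Zfp64 to -0.03, Zfp422 to -0.11 and Zfp706 to -0.05, as it lowers polysome DMSO and raises total DMSO values of all genes alike. In polysome mRNA a filter at a mean of 1 ppm gave 5 higher and a value above 0 in 1 library gave 1 higher. Over all genes tested these filters gave 981 of 13568 and 814 of 25347 higher, in the same order. A fit of the compared groups alone gave 0 higher and 1 lower in polysome mRNA and 9 higher and 23 lower in total mRNA. Of all genes tested it gave 208 higher and 252 lower, and 1063 higher and 1532 lower, in the same order. Such a fit has fewer samples from which to take the spread. Leaving out 1 library gave 1 to 21 higher and 3 to 16 lower in polysome mRNA, and 0 to 1 higher and 5 to 7 lower in total mRNA. Of all genes tested these fits gave 519 to 1156 higher and 687 to 1637 lower in polysome mRNA. In total mRNA they gave 394 to 484 higher and 402 to 523 lower. For polysome against total mRNA leaving out 1 library gave 18 to 22 higher and 59 to 72 lower Zfp genes in Torin1. In DMSO it gave 19 to 25 higher and 64 to 71 lower. Over all genes tested these fits gave 3584 to 4054 higher and 3562 to 3911 lower in Torin1, and 3728 to 3941 higher and 3537 to 3743 lower in DMSO. With the replicate number as a block, the counts were 2 higher and 9 lower in polysome mRNA and 2 and 7 in total mRNA, and 24 higher and 73 lower for polysome against total mRNA in DMSO. Over all genes tested they were 801 and 1088, 602 and 742, and 4167 and 4041, in the same order. Whether the numbers pair the samples is not known. The culture as a block had a correlation of 0.03. Choosing genes by the mean of all 12 libraries gave 151 genes, of which 22 were higher and 54 lower in polysome Torin1 mRNA. For single named genes 2784 values kept their side of the threshold, 113 fell below it and 44 passed it. A further 5 changed sign with the threshold passed in the main fit or in the alternative. Changes of sign where neither fit passed were not counted apart and are among the 2784. The cause of these shifts was not tested unless stated.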

Other observations

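Zfp genes under the level threshold, 180 of those tested, had 4 higher and 66 lower in polysome than in total mRNA of Torin1-treated cells, with a median of -0.31, by limma's test, where 20% of all genes tested were higher and 20.1% lower. Without total Torin1 replicate 2 the counts were 2 and 59, beside 3584 and 3562 of all genes tested. With Torin1 against DMSO in polysome mRNA 6 of them were higher and 1 lower, with a median of 0.05, against 4.43% and 5.73% of all genes tested. These genes were not used above, and the difference from the 165 was not tested.

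Among 20 co-repressor partner genes of KRAB zinc finger proteins, 4 were higher and 10 lower in polysome than in total mRNA with Torin1. That is 20% higher and 50% lower, or 70% in all. At the level threshold 66.4% of genes passed, 37.9% higher and 28.4% lower. The difference in direction was not tested. Dnmt3b, at 1.22 ppm in total DMSO mRNA, lay below that threshold. Without total Torin1 replicate 2 the counts were 3 and 8, beside 3022 and 2226 of the 8759 genes at the level threshold. With Torin1 against DMSO in polysome mRNA 1 was higher, the DNA methyltransferase gene Dnmt1 at 0.50 (limma, adjusted p = 0.00326), and 1 lower, the histone deacetylase gene Hdac1 at -0.24 (limma, adjusted p = 0.0291). In total mRNA 3 were lower and 0 higher: Hdac1 at -0.25, Cbx1, a heterochromatin protein gene, at -0.19, and Mphosph8, a subunit gene of the HUSH silencing complex, at -0.33 (limma, adjusted p = 0.0296, 0.0459 and 0.0294). Dnmt1 was at 46 ppm in polysome Torin1 and 32.1 ppm in polysome DMSO mRNA, and at 80.9 ppm in total Torin1 and 78.5 ppm in total DMSO mRNA. Its change of polysome association with Torin1, 0.45 ± 0.12, did not pass (limma, adjusted p = 0.231).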
